A study of Mus musculus with 16 samples.

Results

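Keratin-associated proteins form the matrix in which the keratin filaments of the hair shaft are embedded, and their cysteines link this matrix by disulfide bonds. They are made late in the differentiation of cortex and cuticle cells of growing follicles, after the hair keratins, from small single-exon genes that lie in clusters. Families are grouped by composition into high sulfur and ultrahigh sulfur proteins, both rich in cysteine, and high glycine-tyrosine proteins. The members described here are the 46 genes, of 14858 in the count table, whose symbol starts with Krtap. By subfamily number, 17 belong to the high sulfur class, 13 to the ultrahigh sulfur class and 14 to the high glycine-tyrosine class, and Krtap31-1 and Krtap31-2 were given no class. Subfamily 16 was divided, with Krtap16-1, on chromosome 11, in the high sulfur class and Krtap16-3, on chromosome 16, in the high glycine-tyrosine class.

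RNA of hind limb skin was sequenced after exon capture from 16 female BALB/cAnNTac mice, aged 10 to 16 weeks, of the Rodent Research-8 mission, with 1 library per mouse. The 10 mice exposed to the space environment (ESE) were flown to the International Space Station (ISS), and the study divided them by the 5-methylcytosine level of the skin into 4 responders (R1 to R4, low level) and 6 non-responders (NR1 to NR6, higher level). The 6 ground controls (GC1 to GC6) were housed on the ground. In the ISS arm, mice were killed on the station (R1, R2, NR1 to NR3, with GC1 to GC3 as controls). In the LAR arm, mice were returned alive (R3, R4, NR4 to NR6, with GC4 to GC6). By the study's account, the flown LAR mice spent more days in space and recovered on the ground before they were killed. The arms thus differ in more than the place of killing. Libraries held 4159342 to 22593931 counts. The RNA integrity number was 1.2 to 2.7, DV200 was 43.5% to 79%, and Rn45s, the ribosomal RNA precursor, took 12.9% to 51.9% of the counts. The 3 libraries with the highest Rn45s share, NR1 (51.93%), GC4 (45.6%) and GC3 (41.34%), were also those with the highest levels of the members, so values with and without them are given below. Skeletal muscle genes summed to 50008 CPM (counts scaled to the library total) in GC6, and liver genes to 1663 CPM in R1. As the skin was sequenced in bulk, fewer follicle cells and less RNA per cell cannot be told apart.

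All 46 genes have 1 exon. In mm10, 21 lie on chromosome 16 between 88610709 and 89571183, among them the high glycine-tyrosine genes, and 20 on chromosome 11 between 99550132 and 99993994. Another 3 lie on chromosome 10 between 77720586 and 77837251, and 2 on chromosome 7 between 142228795 and 142304503. The promoters of 5 members on which the results below turn are shown, from RefSeq (GRCm38.p6), each running from 250 bases before the gene start to 50 bases after it. Krtap19-4 (chr16:88885040-88885339, minus strand) and Krtap21-1 (chr16:89403725-89404024, minus strand) are high glycine-tyrosine genes. Krtap3-1 (chr11:99566581-99566880, minus strand), Krtap11-1 (chr16:89571134-89571433, minus strand) and Krtap26-1 (chr16:88647747-88648046, minus strand) are high sulfur genes. Capitals mark the TATA box letters TATAAA and the letters CTTTGAA of a LEF1/TCF site.
Krtap19-4: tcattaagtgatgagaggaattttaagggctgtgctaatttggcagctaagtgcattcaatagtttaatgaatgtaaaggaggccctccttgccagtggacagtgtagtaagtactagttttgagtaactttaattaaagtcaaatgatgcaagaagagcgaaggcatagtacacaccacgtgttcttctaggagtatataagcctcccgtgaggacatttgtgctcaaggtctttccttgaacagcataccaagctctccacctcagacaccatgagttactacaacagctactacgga
Krtap21-1: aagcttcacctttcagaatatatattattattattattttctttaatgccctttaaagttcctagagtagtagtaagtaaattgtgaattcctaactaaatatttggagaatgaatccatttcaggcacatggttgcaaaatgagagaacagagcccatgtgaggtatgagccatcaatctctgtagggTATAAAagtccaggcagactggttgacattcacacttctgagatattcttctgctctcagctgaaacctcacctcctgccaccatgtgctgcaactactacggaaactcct
Krtap3-1: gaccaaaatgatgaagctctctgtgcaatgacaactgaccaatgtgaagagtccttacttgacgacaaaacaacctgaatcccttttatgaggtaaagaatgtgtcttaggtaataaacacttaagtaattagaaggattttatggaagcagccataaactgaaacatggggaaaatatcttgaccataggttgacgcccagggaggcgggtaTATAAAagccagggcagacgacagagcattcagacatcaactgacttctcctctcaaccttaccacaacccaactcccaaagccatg
Krtap11-1: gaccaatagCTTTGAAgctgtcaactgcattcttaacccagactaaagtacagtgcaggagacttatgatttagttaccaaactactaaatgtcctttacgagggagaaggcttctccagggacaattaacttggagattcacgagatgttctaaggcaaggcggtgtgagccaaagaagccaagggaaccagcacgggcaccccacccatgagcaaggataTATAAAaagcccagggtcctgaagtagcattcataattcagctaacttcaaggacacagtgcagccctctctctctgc
Krtap26-1: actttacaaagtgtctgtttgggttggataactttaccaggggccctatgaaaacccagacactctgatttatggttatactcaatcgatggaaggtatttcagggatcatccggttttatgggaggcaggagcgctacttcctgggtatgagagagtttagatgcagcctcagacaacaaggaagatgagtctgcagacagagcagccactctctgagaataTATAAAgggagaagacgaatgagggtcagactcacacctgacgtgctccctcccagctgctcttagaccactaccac

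The TATAAA started 61 bases before the gene start in Krtap21-1, 37 in Krtap3-1, 28 in Krtap11-1 and 27 in Krtap26-1. CTTTGAA started 241 bases before the start of Krtap11-1. Neither run of letters was in the window of Krtap19-4. Only these exact letters were searched, so a variant of either site would not be marked in any window. Of the 41 members with an entry in the promoter table, 33 (80.5%) held TATAAA on either strand, as did 13.6% of all 32851 promoters of that length. On the gene's own strand, with the first letter 40 to 25 bases before the start, it was in 23 of 41 members (56.1%) and in 1.91% of all promoters. CTTTGAA, on either strand, was in 9 of 41 members (22%) and in 5.14% of all promoters. The members Krtap12-1, Krtap9-1, Krtap7-1, Krtap10-10 and Krtap1-3 had no entry. Neighbouring members share ancestry, so their promoters are not independent of each other.

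The classes by number were compared with the coding sequences in GENCODE vM21. Cysteine took a median of 37.7% of the codons in the ultrahigh sulfur genes (27.2% to 41.5%), 20.2% in the high sulfur genes (4.0% to 30.6%) and 7.76% in the high glycine-tyrosine genes (0.0% to 16.4%). Glycine and tyrosine together took a median of 62.8% in the high glycine-tyrosine genes (29.9% to 69.2%), 7.45% in the high sulfur genes and 4.76% in the ultrahigh sulfur genes. Part of the high sulfur class departed from it. Krtap11-1, Krtap13-1, Krtap14, Krtap15, Krtap24-1, Krtap26-1 and Krtap27-1 had cysteine shares within the range of the high glycine-tyrosine genes. They included 4.0% in Krtap15, 8.47% in Krtap24-1 and 11.2% in Krtap26-1. The other high sulfur genes had at least 20.1%, above that range. The class names used below thus follow the subfamily number, not the cysteine share. In the other classes single genes departed. Krtap19-9b had no cysteine codon, the ultrahigh sulfur member Krtap17-1 had 34.9% glycine, and Krtap21-1 combined 64.1% glycine and tyrosine with 16.4% cysteine. Over the 46 members, 29 shared no run of 100 bases with another gene, and 9 shared more than 10% of such runs, up to 38.9% in Krtap10-10. As reads with several matches were left out of the counts, the levels of these 9 (Krtap10-10, Krtap3-3, Krtap31-2, Krtap31-1, Krtap9-1, Krtap3-2, Krtap10-4, Krtap6-1 and Krtap4-8) may be understated. Krtap12-1, Krtap10-4 and Krtap10-10 lie within Tspear, Krtap24-1 lies opposite Gm49688, and the annotation of Krtap14 overlaps that of Krtap15 on the other strand, and reads of such pairs may not be separated.

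High glycine-tyrosine and high sulfur transcripts made up nearly all of the members' counts. Over all libraries, the high glycine-tyrosine class took 50.6% of the Krtap counts, the high sulfur class 44.9%, the ultrahigh sulfur class 4.49% and the 2 genes with no class 0.0213%. Mean levels were also taken per kilobase of gene length. In the high glycine-tyrosine class, Krtap22-2 (856 CPM per kb), Krtap7-1 (853), Krtap19-4 (827) and Krtap8-1 (588) were highest. In the high sulfur class, Krtap3-1 (667 CPM per kb), Krtap14 (450), Krtap15 (316) and Krtap11-1 (202) led. The ultrahigh sulfur genes were lower, with Krtap9-3 at 103 CPM per kb, Krtap17-1 at 41.7, Krtap4-1 at 30.0 and Krtap4-6 at 16.9. In total 29 members had at least 10 counts in all 16 libraries, and 6 were at 0 in some library.

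The level of the whole family differed between single mice far more than between groups. Krtap transcripts took 0.0307% of the counts in GC6 and 0.839% in GC3, a 27.3-fold range within the ground controls. For the 40 members above 0 in every library, the highest level was 29.3 to 308 times the lowest, with a median of 45.2. The highest library was GC4 for 26 members, GC3 for 16 and NR1 for 3, and Krtap4-9 was highest in R3. The lowest was GC6 for 21 members, NR4 for 10 and GC5 for 6, and other libraries for 9. The same few libraries thus held the highest and the lowest level of most members, with ground controls at both ends.

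**Figure D1:**
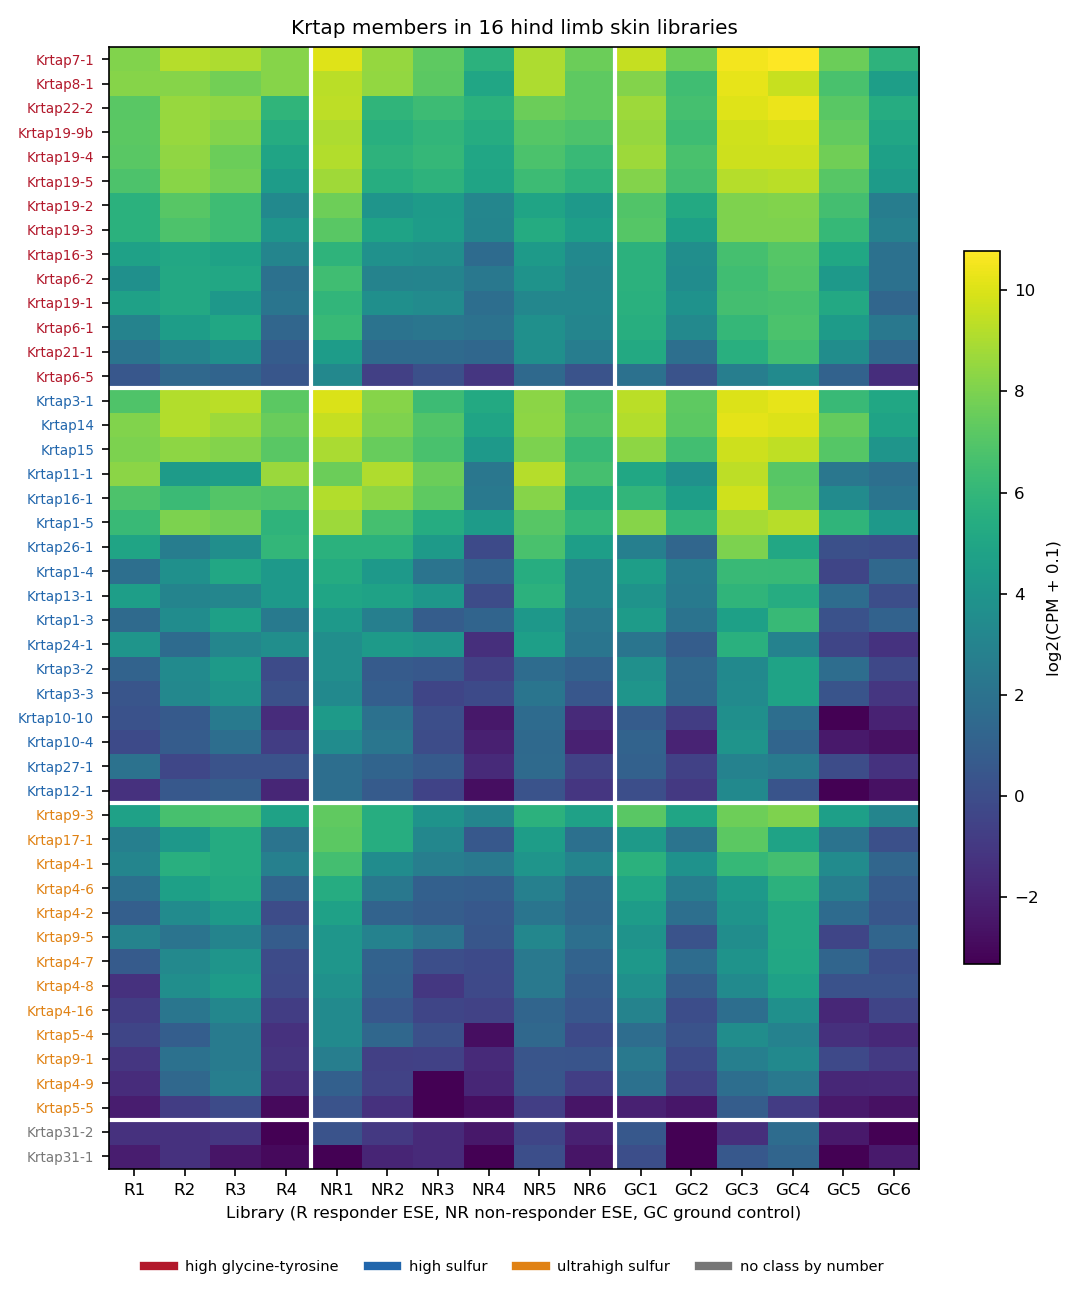
Level of each of the 46 Krtap genes (rows, by class and mean level) in each of the 16 libraries (columns: responders, non-responders, ground controls), as log2(CPM + 0.1). Whole columns are bright in NR1, GC3 and GC4 and dark in NR4 and GC6, so libraries of one group differ from each other.

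The summed level of all members was 2590, 4816, 4233 and 2007 CPM in R1 to R4. In NR1 to NR6 it was 8695, 3002, 1460, 424, 4035 and 1436 CPM. In GC1 to GC6 it was 5376, 1368, 13073, 12109, 1765 and 363 CPM. The ground controls held both the highest and the lowest library, the ranges of all groups overlapped, and the responders were the least spread. Medians were 2796 CPM in ESE mice (n = 10) and 3570 CPM in ground controls (n = 6), with means of 3270 ± 2362 and 5676 ± 5626 CPM (SD). High glycine-tyrosine genes summed to 275 to 4508 CPM in ESE mice (median 1164) and 228 to 7332 CPM in ground controls (median 2135). The high sulfur sum had a median of 1525 CPM in ESE mice (126 to 3632) and of 1263 CPM in ground controls (114 to 5572), so the order of the medians was the opposite of that of the high glycine-tyrosine genes. Ultrahigh sulfur genes summed to 21.8 to 553 CPM in ESE mice (median 90.8) and 20.3 to 609 CPM in ground controls (median 203).

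**Figure D2:**
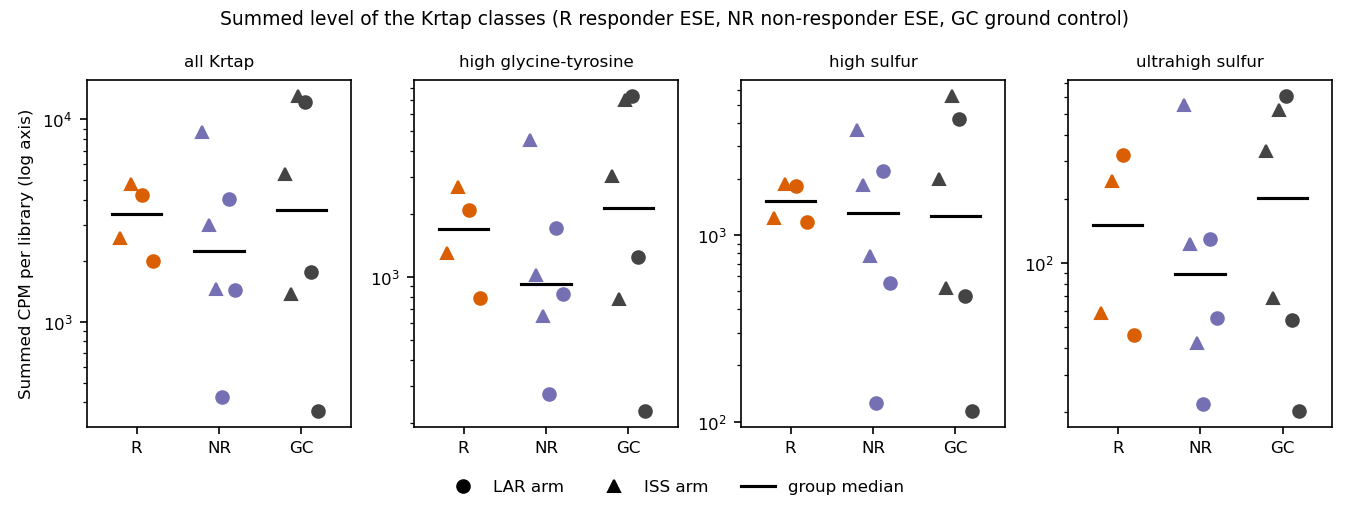
Summed CPM (log axis) of all Krtap genes and of each class in every library, for responders (R, n = 4), non-responders (NR, n = 6) and ground controls (GC, n = 6). Circles are LAR and triangles ISS libraries, and lines are group medians. The ground control points span those of both ESE groups in the sums of all Krtap, high sulfur, ultrahigh sulfur and high glycine-tyrosine genes.

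Against the ground controls, no member passed edgeR's quasi-likelihood test in the ESE mice. Of the 43 members that passed the filter on low counts, 0 had a Benjamini-Hochberg adjusted p under 0.05, as was so for all 13577 genes tested (0%). Krtap31-1, Krtap31-2 and Krtap5-5 had too few counts. At an unadjusted p under 0.05, 2 members were lower (4.8% of all genes) and 0 higher (3.06% of all genes). DESeq2 gave 4 lower (4.47% of all genes) and 0 higher (4.47%), edgeR's likelihood ratio test 4 lower (5.15%) and 0 higher (3.2%), and neither called a member at the adjusted threshold. The log2 fold change was below 0 for 40 of 43 members and for 54.7% of all genes, with medians of -0.86 and -0.04. By class, it was below 0 for 14 of 14 high glycine-tyrosine genes (median -1.23), 12 of 12 ultrahigh sulfur genes (median -0.71) and 14 of 17 high sulfur genes (median -0.63).

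The high glycine-tyrosine gene Krtap21-1 had the smallest p. Its level was 4.23, 7.73, 12.8 and 1.61 CPM in R1 to R4, 22.3, 2.77, 2.81, 2.48, 12.9 and 6.12 CPM in NR1 to NR6, and 37.7, 3.39, 47.6, 89.8, 11.8 and 2.56 CPM in GC1 to GC6. Ground controls GC1, GC3 and GC4 were above every ESE library, while GC2 and GC6 lay among the low ESE libraries. The log2 fold change was -2.12 (standard error, SE, 0.70, 4.34-fold lower, edgeR adjusted p = 0.624). Krtap16-3, of the same class, had 26.3, 35.3, 27.5 and 8.47 CPM in R1 to R4, 57.4, 13.9, 12.3, 2.98, 20.4 and 10.3 CPM in NR1 to NR6, and 52.8, 12.2, 98.8, 134, 33.9 and 3.77 CPM in GC1 to GC6. GC3 and GC4 exceeded all ESE libraries and the others overlapped, which gave -1.39 on the log2 scale (SE 0.63, 2.62-fold lower, edgeR adjusted p = 0.624). Krtap19-1 had a median of 11.9 CPM in ESE mice (3.25 to 60.7) and 42.7 CPM in ground controls (2.41 to 101), and the ranges overlapped. Its log2 fold change was -1.40 (SE 0.66, edgeR adjusted p = 0.624).

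Among the most abundant high glycine-tyrosine genes, Krtap19-4 had a median of 91.5 CPM in ESE mice (30.3 to 558) and 313 CPM in ground controls (25.2 to 838), or -1.33 on the log2 scale (SE 0.70, edgeR adjusted p = 0.624). Krtap22-2 had medians of 148 CPM in ESE mice (50.1 to 655) and 281 CPM in ground controls (41.4 to 1312), and a log2 fold change of -1.28 (SE 0.70). In both, the lowest and the highest library were ground controls. Krtap7-1 and Krtap8-1, single members of their subfamilies in these data, stood closer to 0. The medians of Krtap7-1 were 335 CPM in ESE mice (53.6 to 1069) and 471 CPM in ground controls (54.4 to 1741), with a log2 fold change of -0.86 (SE 0.65). Krtap8-1 had a higher median in ESE mice, 293 CPM (31.7 to 622), than in ground controls, 198 CPM (23.3 to 1221), while its log2 fold change, which follows the means, was -0.51 (SE 0.67). The other members of the class, Krtap19-2, Krtap19-3, Krtap19-5, Krtap19-9b, Krtap6-1, Krtap6-2 and Krtap6-5, had log2 fold changes of -1.34 to -0.92.

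The high sulfur genes were more mixed. Krtap3-1 had a median of 220 CPM in ESE mice (38.2 to 1012) and 392 CPM in ground controls (33.5 to 1217), a log2 fold change of -0.67 (SE 0.75). Krtap14 had medians of 269 CPM in ESE mice (30.2 to 726) and 366 CPM in ground controls (29 to 1155), and -0.78 (SE 0.66) on the log2 scale. Krtap15 had 216 CPM (18.9 to 501) in ESE mice and 231 CPM (16.4 to 833) in ground controls, and -0.69 (SE 0.66). All of these ranges overlapped over most of their length. Above 0 were Krtap11-1 (log2 fold change 0.74, SE 1.09, edgeR adjusted p = 0.817), Krtap10-10 (0.24, SE 1.15) and Krtap24-1 (0.21, SE 0.90). Krtap11-1 had 314, 21.3, 23.7 and 398 CPM in R1 to R4, 194, 543, 197, 4.65, 598 and 97.4 CPM in NR1 to NR6, and 34.1, 13.9, 669, 139, 4.76 and 3.45 CPM in GC1 to GC6. The medians were 195 CPM in ESE mice and 24 CPM in ground controls, and GC3 was the highest library of all. Of the other high sulfur genes, Krtap3-3 and Krtap1-3 were lowest, at -1.10 (SE 0.86) and -1.09 (SE 0.78) on the log2 scale, and Krtap16-1 and Krtap13-1 nearest to 0, at -0.02 (SE 0.95) and -0.06 (SE 0.77).

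Ultrahigh sulfur genes had log2 fold changes between -1.17 in Krtap4-7 and -0.20 in Krtap17-1. Krtap9-3, the most abundant of them, had a median of 35.3 CPM in ESE mice (8.35 to 161) and 88.0 CPM in ground controls (8.32 to 265), with a log2 fold change of -0.99 (SE 0.69). Krtap4-1 had 9.98 CPM (5.01 to 94.2) in ESE mice and 32.7 CPM (2.41 to 92.8) in ground controls (-0.73, SE 0.75), and Krtap4-6 had 4.26 CPM (1.72 to 42.8) in ESE mice and 13 CPM (1.52 to 52.5) in ground controls (-0.61, SE 0.83). Krtap17-1 had nearly equal medians of 13.6 CPM in ESE mice (1.40 to 151) and 12.2 CPM in ground controls (0.994 to 149). In these 4 genes the groups overlapped.

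**Figure D3:**
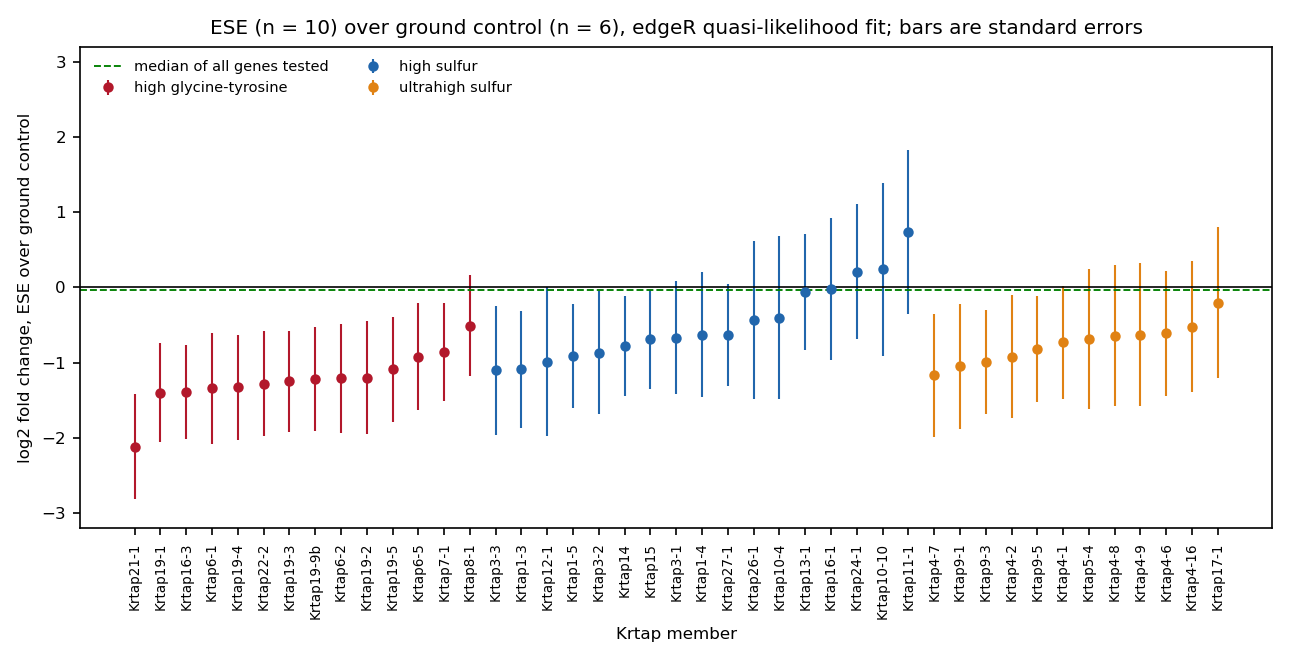
Log2 fold change of the 43 tested Krtap genes in ESE mice (n = 10) over ground controls (n = 6) from edgeR's quasi-likelihood fit, with standard errors as bars and colours for the classes. The dashed line is the median of all genes tested (-0.04), and 40 of the 43 points lie below 0, with 19 of the 43 within 1 standard error of 0.

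The size of the difference rested on few libraries. Without GC4 the median of the members was -0.39, with 36 of 43 below 0 (53% of all genes). Without NR1, the ESE library of highest Krtap level, it was -1.19, and 12 members had an unadjusted p under 0.05, all lower (6.05% of all genes). Without GC6, which held the muscle RNA, it was -1.10, with 8 lower (2.87%). With NR1, GC3 and GC4 left out together, the median was -0.03 with 22 of 43 below 0 (51.3% of all genes), and 0 members were lower (8.9% of all genes) and 4 higher (6.72%) at an unadjusted p under 0.05. The 4 were the high sulfur genes Krtap26-1 (log2 fold change 3.68, SE 1.08), Krtap11-1 (4.12, SE 1.29), Krtap24-1 (2.73, SE 0.97) and Krtap16-1 (2.48, SE 0.93), with edgeR adjusted p-values of 0.258 to 0.279. Ground control GC3, left out here, was the highest library of each of these 4 genes. Leaving it out by itself raises their log2 fold changes. The high sulfur class then had a median of 1.0, with 3 of 17 below 0, and the high glycine-tyrosine class of -0.51, with 12 of 14 below 0. In limma-voom with library quality weights, which used all 16 libraries, the same 4 high sulfur genes were higher and 5 high glycine-tyrosine genes lower at an unadjusted p under 0.05 (9.73% and 13.8% of all genes). Over the 43 members tested, neither count was above the share of all genes. No member passed the adjusted threshold there (smallest limma-voom adjusted p = 0.101). The class medians there were 0.46 for high sulfur and -1.07 for high glycine-tyrosine genes. In limma-voom without these weights, an alternative added with the values known, 1 member was lower (5.54% of all genes) and 0 higher (2.61%), and the class medians were 0.50 for high sulfur and -1.0 for high glycine-tyrosine genes. The sign of the high sulfur median thus differed between edgeR and limma-voom, with weights and without.

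Set against the responders alone and the non-responders alone, which share the same 6 ground controls, members again did not pass the test. In the responders 0 of 44 tested members passed (0.00709% of all 14107 genes), with 1 lower (1.63%) and 0 higher (1.79%) at an unadjusted p under 0.05. The log2 fold change was below 0 for 42 of 44 (55.4% of all genes), with a median of -0.79, and of -1.11 for high glycine-tyrosine, -0.64 for ultrahigh sulfur and -0.54 for high sulfur genes. Krtap21-1 had -2.28 (SE 0.99, edgeR adjusted p = 0.976), Krtap31-1, with 0 to 13 counts a library, -2.50 (SE 1.36), and Krtap16-3 -1.19 (SE 0.85). In the non-responders 0 of 44 passed (0% of all genes), with 1 lower (4.32%) and 0 higher (2.64%). There 38 of 44 were below 0 (54.9%), with a median of -1.01, and of -1.41 for high glycine-tyrosine, -1.09 for ultrahigh sulfur and -0.63 for high sulfur genes. Krtap21-1 had -2.01 (SE 0.85, edgeR adjusted p = 0.66), Krtap16-3 -1.55 (SE 0.75) and Krtap19-1 -1.53 (SE 0.80). DESeq2 and edgeR's likelihood ratio test gave 1 lower member each in responders (2.3% and 2.09% of all genes) and 4 each in non-responders (4.62% and 4.76%). In limma-voom 0 members had an unadjusted p under 0.05 in responders (2.66% of all genes were lower and 1.64% higher), and 5 were lower (12.2%) and 4 higher (9.63%) in non-responders. Neither count in non-responders was above the share of all genes. Both medians moved with single libraries. For responders the median was -0.32 without GC4 and -0.40 without GC3, and for non-responders it was -0.57 without GC4 and -1.81 without NR1, where 21 of 44 were lower at an unadjusted p under 0.05 (6.65%). Without NR1, GC3 and GC4 the responder median was 0.57, with 5 of 43 below 0 (53.1% of all genes), and the non-responder median -0.71, with 29 of 43 below 0 (51.6%).

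Between the responder and non-responder mice, 0 of 44 members passed the test (0% of all genes), and 0 were lower (0.936% of all genes) or higher (1.23%) at an unadjusted p under 0.05. At an unadjusted p under 0.05, DESeq2 gave 0 members (1.85% of all genes were lower and 1.32% higher), as did the likelihood ratio test (1.22% and 1.43%) and limma-voom with weights (0.411% and 1.21%), and none of them called a member at the adjusted threshold. The log2 fold change was below 0 for 18 of 44 (48.3% of all genes), with a median of 0.22. That median was 1.05 without NR1 and 0.45 without R4, and between -0.13 and 0.08 without R2, R3, NR2, NR3, NR4 or NR6, so its sign depended on single mice. The members of smallest p were Krtap4-9, Krtap3-2 and Krtap3-3. Krtap4-9, an ultrahigh sulfur gene, had 0.242 to 6.38 CPM in responders (median 1.41) and 0.0 to 1.86 CPM in non-responders (median 0.553), or 1.86 on the log2 scale (SE 1.16, edgeR adjusted p = 1.0). Krtap3-2 had 0.822 to 20 CPM in responders (median 6.26) and 0.542 to 12.3 CPM in non-responders (median 1.80), and 1.39 (SE 1.01) on the log2 scale. Krtap3-3 had a log2 fold change of 1.24 (SE 1.08). In Krtap4-9 and Krtap3-2 the groups overlapped.

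Within each arm, the ESE and ground control ranges also overlapped. The members' summed level in the LAR arm was 424 to 4233 CPM in ESE mice (median 2007, n = 5) and 363 to 12109 CPM in ground controls (median 1765, n = 3). In the ISS arm it was 1460 to 8695 CPM in ESE mice (median 3002, n = 5) and 1368 to 13073 CPM in ground controls (median 5376, n = 3). In a fit of exposure by arm, 0 of 44 members passed in the LAR arm (0% of 14381 genes) and 3 were lower at an unadjusted p under 0.05 (5.97% of all genes), all of them high glycine-tyrosine genes. They were Krtap19-1 (log2 fold change -2.38, SE 0.87, edgeR adjusted p = 0.43), Krtap16-3 (-2.03, SE 0.89) and Krtap21-1 (-2.26, SE 1.03). The high glycine-tyrosine median was -1.78 in the LAR arm and that of the high sulfur genes -0.15. In the ISS arm 0 of 44 passed (0% of all genes) and 0 had an unadjusted p under 0.05 (1.29% of all genes lower and 1.1% higher), with a median of -0.89 for high glycine-tyrosine and -0.67 for high sulfur genes. For the difference of the ESE effect between the arms, 0 members passed (0% of all genes) and 0 had an unadjusted p under 0.05 (3.23% lower and 1.56% higher), and the smallest p was that of Krtap26-1 (log2 difference 3.24, SE 2.14, edgeR adjusted p = 0.999). Arm comparisons were planned on condition that the deposited data gave the arm, which they did not. The arm fits given here were added as alternatives after the data were seen.

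Lists of other follicle genes had medians of -0.11 to 0.44 on the log2 scale, and lists of proliferating cells and of other cell types ranged more widely. The hair shaft keratins, the filament proteins that the keratin-associated proteins surround, had log2 fold changes below 0 for 7 of 14 genes in ESE mice against ground controls, with a median of 0.06. Of the 16 keratins listed, Krt85 and Krt87 had no row in the counts, so every keratin sum used here lacks them. Regulators of the shaft such as Hoxc13 and Foxn1 were below 0 for 3 of 12, with a median of 0.44, and shaft proteins and enzymes for 5 of 9, with a median of -0.11. Inner root sheath genes were below 0 for 3 of 8, with a median of 0.02. Their sum was 986 to 82508 CPM in ESE mice (median 28105) and 816 to 168978 CPM in ground controls (median 7825), and the median log2 fold change of the list was 3.56 in the LAR arm and -0.92 in the ISS arm. The 8 proliferation genes were above 0 throughout, with a median of 1.22 and 1 at an unadjusted p under 0.05 (3.06% of all genes were higher). Of the cell types outside the follicle, genes of the interfollicular epidermis were below 0 for 6 of 6 (median -0.38), those of dermal fibroblasts for 4 of 4 (median -0.22) and those of skeletal muscle for 8 of 8 (median -3.64), where 5 muscle genes had an unadjusted p under 0.05 (4.8% of all genes were lower). The muscle sum was highest in GC6 (50008 CPM), of the LAR arm. Within the ISS arm, 7 of 8 muscle genes were above 0 (median 0.87). Adipocyte genes were above 0 for 4 of 4 (median 1.70), with 0 at an unadjusted p under 0.05. Their sum had a lower median in ESE mice (229 CPM) than in ground controls (300 CPM), and NR4 was highest (3254 CPM). Both liver genes tested were above 0 (median 5.23), each at an unadjusted p under 0.05 (3.06% of all genes were higher). The liver sum was highest in R1 (1663 CPM). The part of these lists in the members' differences was not tested. No gene of these lists passed the adjusted threshold of edgeR's quasi-likelihood test.

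Within a library, the members were also set against the hair shaft keratins, a ratio chosen after its values were seen. Krtap counts per hair shaft keratin count were 1.21, 1.74, 0.884 and 1.17 in R1 to R4. They were 1.79, 0.91, 0.951, 2.21, 1.19 and 1.72 in NR1 to NR6, and 2.04, 2.18, 2.07, 2.64, 3.86 and 2.31 in GC1 to GC6. All 4 responders and 5 of 6 non-responders lay below the lowest ground control in this ratio, and NR4 was the exception. The keratin sum was carried in many libraries by Krt84, a type II hair keratin singled out after its values were seen, which took 9.95%, 68.9%, 85.0% and 8.66% of it in R1 to R4. It took 46.6%, 9.71%, 8.84%, 62.5%, 9.37% and 23.4% in NR1 to NR6, and 67.7%, 47.1%, 19.9%, 53.7%, 56.8% and 61.9% in GC1 to GC6. Per count of the keratins other than Krt84, Krtap counts were 1.35, 5.60, 5.91 and 1.28 in R1 to R4. They were 3.36, 1.01, 1.04, 5.88, 1.32 and 2.24 in NR1 to NR6, and 6.34, 4.11, 2.58, 5.71, 8.93 and 6.06 in GC1 to GC6. Without Krt84 the groups thus overlapped more, with 6 of 10 ESE libraries below the lowest ground control, while R2, R3, NR1 and NR4 lay among the ground controls. With Krt84 in the sum, the ratio for the high glycine-tyrosine class was 0.311 to 1.43 in ESE mice (median 0.557) and 1.1 to 2.71 in ground controls (median 1.34), and again 9 of 10 ESE libraries were below all ground controls. For the high sulfur class it was 0.381 to 0.749 in ESE mice (median 0.653) and 0.727 to 1.03 in ground controls (median 0.853), with 9 of 10 below, and for the ultrahigh sulfur class 7 of 10 were below. Without Krt84 it was 6 of 10 in each of the 3 classes. Taken against one keratin at a time, the groups overlapped more. Per Krt86 count, Krtap counts were 12.5 to 22.6 in ESE mice (median 18.0) and 18.2 to 35.2 in ground controls (median 22.5), with 6 of 10 below the lowest ground control. Per Krt31 count they were 14.1 to 600.0 in ESE mice and 48.6 to 673 in ground controls, with 5 of 10 below, and per Krt33a count 6 of 10 were below and R3 was above all ground controls. The high glycine-tyrosine share of the Krtap counts was 34.1% to 65.0% in ESE mice (median 49.8%) and 53.4% to 70.3% in ground controls (median 58.9%), with 7 of 10 ESE libraries below all ground controls. The high sulfur share was 29.8% to 61.8% in ESE mice (median 45.2%) and 26.7% to 42.6% in ground controls (median 35.8%), with 6 of 10 above all ground controls.

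**Figure D4:**
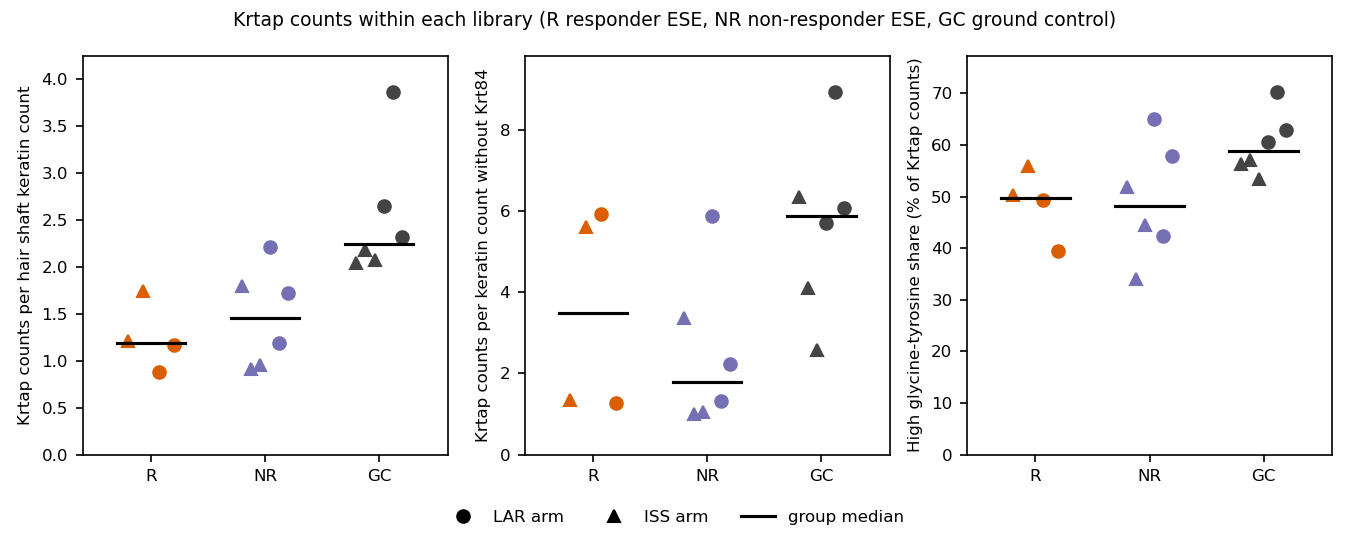
Krtap counts per hair shaft keratin count, the same without Krt84 in the keratin sum, and the high glycine-tyrosine share of Krtap counts (%) in each library of responders (R), non-responders (NR) and ground controls (GC). Circles are LAR and triangles ISS libraries, and lines are medians. In the first panel 9 of 10 ESE libraries lie below the lowest ground control (2.04), and without Krt84, in the second panel, 6 of 10 do (2.58), with 2 responders and 2 non-responders among the ground controls. In the third panel 7 of 10 ESE libraries lie below all ground controls.

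The same comparison was made in a fit with the log2 summed level of the hair shaft keratins of each library as a covariate. With it, 24 of 43 members were lower in ESE mice at an unadjusted p under 0.05, where 5.23% of all genes were, and 1 was higher (4.75% of all genes), with a median of -0.97. They included 13 of 14 high glycine-tyrosine, 6 of 17 high sulfur and 5 of 12 ultrahigh sulfur genes. Krtap16-3 was at -1.56 on the log2 scale (SE 0.32) and Krtap21-1 at -1.97 (SE 0.46), and the higher gene was Krtap11-1 (1.62, SE 0.74). No member passed the adjusted threshold (smallest edgeR adjusted p = 0.341). With Krt84 left out of the covariate, an alternative added with the values known, 11 of 43 members were lower (3.16% of all genes) and 0 higher (3.98%), with a median of -0.85 and a smallest edgeR adjusted p of 0.68. The 11 were 9 high glycine-tyrosine genes, among them Krtap16-3 (-1.53, SE 0.44) and Krtap21-1 (-2.02, SE 0.56), and the high sulfur genes Krtap27-1 and Krtap13-1. The count of lower members thus depended on Krt84. With Krt84 in the covariate and NR1, GC3 and GC4 left out, an alternative added with the values known, 19 of 43 were lower (7.77% of all genes), 10 of them high glycine-tyrosine genes, and 2 were higher (9.01%), Krtap11-1 (2.61, SE 1.14) and Krtap26-1 (2.42, SE 0.94). The median was -0.93 and the smallest edgeR adjusted p 0.133. Ground control GC3, left out here, was the highest library of Krtap11-1 and of Krtap26-1. With Krt84 in the covariate and all libraries, 18 of 44 members were lower in responders (2.3% of all genes) and 18 of 44 in non-responders (4.78%). With Krt84 left out of it, 3 of 44 were lower in responders (1.22%) and 18 of 44 in non-responders (3.44%). Without the 3 libraries, and with Krt84, it was 3 of 43 in responders (2.85%) and 17 of 43 in non-responders (7.75%). Between responders and non-responders the covariate with Krt84 gave 3 of 44 lower (0.638%), and 0 of 43 without the 3 libraries (0.61%). Without Krt84 in the covariate, 0 of 44 were lower (0.773%) and 4 higher (2.18%), Krtap3-2, Krtap4-9, Krtap14 and Krtap15, with a median of 0.69, where the covariate with Krt84 gave -0.15. The members of a library share its counts and its keratin level, so these counts are not counts of independent genes.

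Members also differed among themselves from mouse to mouse. Krtap11-1 counts per Krtap19-4 count were 2.16, 0.0625, 0.12 and 13.1 in R1 to R4. They were 0.348, 10.0, 2.92, 0.142, 5.55 and 1.29 in NR1 to NR6, and 0.0823, 0.129, 0.798, 0.17, 0.0225 and 0.137 in GC1 to GC6, a 582-fold range. In 6 of 10 ESE libraries the ratio was above all ground controls, and in the other 4 it lay among them. Krtap26-1 counts per Krtap15 count ran from 0.00722 in GC5 to 0.444 in R4 (61.5-fold), and Krtap16-1 counts per Krtap3-2 count from 3.39 in GC5 to 219 in NR2 (64.6-fold). Krtap8-1 per Krtap7-1, neighbours on chromosome 16, varied 2.88-fold. These pairs were chosen after their values were seen. Krt35, which in human follicles is among the first hair keratins made in the shaft, was 377, 13.8, 0.742 and 370 CPM in R1 to R4, 103, 693, 322, 3.61, 597 and 87.0 CPM in NR1 to NR6, and 1.82, 83.3, 288, 8.44, 0.194 and 1.73 CPM in GC1 to GC6. R1, R4, NR2, NR3 and NR5 were high both in Krt35 and in Krtap11-1 per Krtap19-4, and GC5 was lowest in both.

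**Figure D5:**
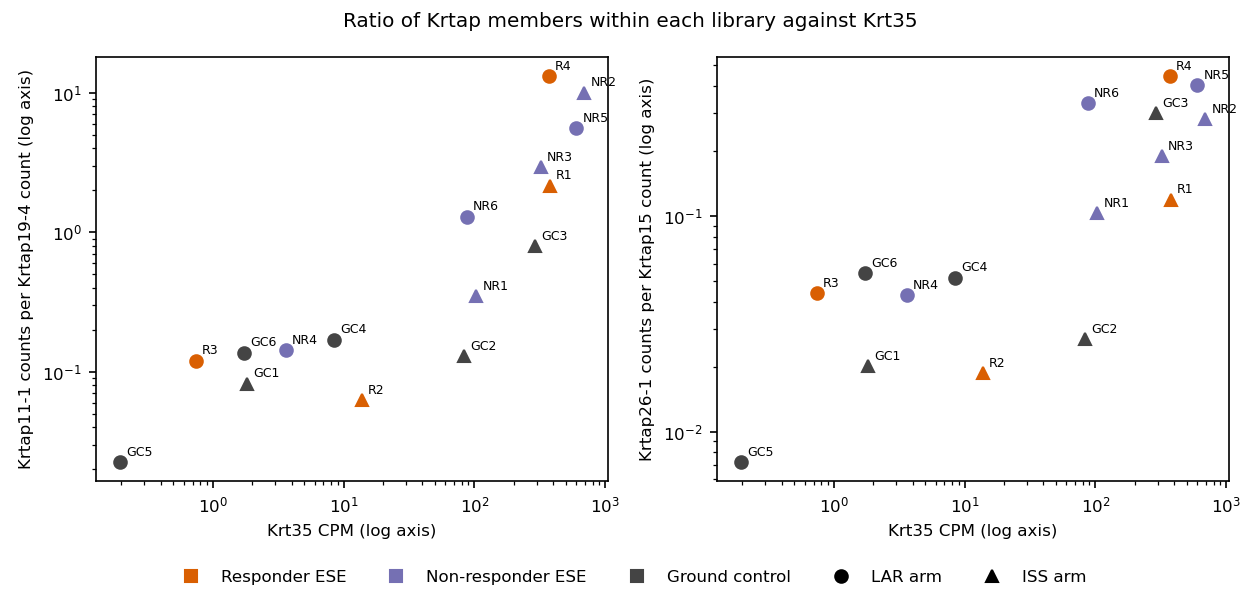
Krtap11-1 counts per Krtap19-4 count and Krtap26-1 counts per Krtap15 count (log axes) against the level of Krt35 in CPM (log axis), 1 point per library, coloured by group and shaped by arm. Both axes come from the same library. R4 has the highest value of both ratios and GC5 the lowest, at the lowest Krt35 level (0.194 CPM).

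Single pairs of libraries of one group, also chosen after their values were seen, show which members went against the rest. GC3 and GC4, at 13073 and 12109 CPM, had nearly equal Krtap19-4, with a ratio of GC3 over GC4 of 1.02, but Krtap26-1 was 7.12 times, Krtap10-4 6.73 times, Krtap24-1 6.57 times, Krtap16-1 5.52 times, Krtap17-1 5.16 times and Krtap11-1 4.81 times as high in GC3. Their inner root sheath sums were 168978 CPM in GC3 and 29109 CPM in GC4. R4 was below R2 for 38 of 46 members, with a median ratio of 0.209, while Krtap11-1 was 18.7 times and Krtap26-1 10.2 times as high in R4. R1 was below R3 for most members (median ratio 0.461), with Krtap11-1 13.3 times as high in R1. NR2 was below NR1 for all but Krtap11-1, Krtap24-1 and Krtap31-1. Krtap11-1 was thus higher in R4, R1 and NR2 while most members were lower there. The part of the Rn45s share, the muscle and liver RNA and the RNA quality of single libraries in the differences given here was not tested.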

How the data were processed

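The deposited counts are raw reads per gene. The authors used STAR and mm10 for reads of exon-capture libraries, dropped those of poor quality or with several matches, and counted the rest with featureCounts on refGene, and the strand setting and any filter on low counts are not given in the sources used here. The RNA integrity number, a score, and DV200, the percent of RNA fragments over 200 bases, were deposited by the authors from the Bioanalyzer. Columns with the authors' fold changes, p-values and false discovery rates for 3 comparisons, and log2 FPKM, were not used.

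Counts were tested in edgeR 4.0.16 under R 4.3.3 (filterByExpr, TMM, robust quasi-likelihood F test, Benjamini-Hochberg over all genes tested, threshold 0.05), in a fit with 2 groups for ESE and a fit with 3 groups otherwise. The script was tested on simulated data. CPM was taken over the TMM-scaled totals of the genes kept in the ESE fit. Tables were made in Python 3.11.15. The members named were the 4 of highest CPM per kilobase in each class, the 3 of smallest p in each comparison, every member with an unadjusted p under 0.05 in ESE against ground controls, and those without enough counts. The members and lists were chosen with earlier results of these data known. Mice are the replicates. The arm came from the study's sample table, which pairs sample names with arms, and the arm comparisons were therefore made as alternatives.

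Alternatives were limma-voom with and without quality weights (limma 3.58.1), DESeq2 1.42.0, edgeR's likelihood ratio test, RLE size factors, a fit with no filter on counts, a minimum of 10 counts per library, the fit without robust estimation, totals without Rn45s, the arm or the hair shaft keratin level (with and without Krt84) as a covariate, each library left out in turn, and fits without the libraries of highest Rn45s share or of highest Alb and Acta1.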

Additional observations from a re-analysis of the deposited data

Results flagged for a closer look

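In 16 of 69 groups of libraries tested, the highest or lowest library lay far from the others of its group. The groups reuse the same libraries, related members and sums of these members, and CPM was not put on a log scale. The flags are therefore not independent, and no chance rate is given for them. Most of these flags named NR1, the library with the highest Rn45s share of counts (51.93%) and the fewest counts (4159342). NR1 had 558 CPM of Krtap19-4 (32.7 to 108 in the other non-responders), 655 CPM of Krtap22-2 (50.1 to 191), 60.7 CPM of Krtap19-1 (3.25 to 12.7) and 57.4 CPM of Krtap16-3 (2.98 to 20.4), and its high glycine-tyrosine sum was 4508 CPM (275 to 1710). It also had 1012 CPM of Krtap3-1 (38.2 to 324) and 12.3 CPM of Krtap3-2 (0.542 to 3.07), of the high sulfur class. Of the ultrahigh sulfur class, NR1 had 161 CPM of Krtap9-3 (8.35 to 52.7), 151 CPM of Krtap17-1 (1.40 to 44.5), 94.2 CPM of Krtap4-1 (5.01 to 15.9) and 42.8 CPM of Krtap4-6 (1.72 to 6.82), and the class summed to 553 CPM (21.8 to 130).

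Among the ground controls, GC3 had 669 CPM of Krtap11-1, where the others had 3.45 to 139, and 149 CPM of Krtap17-1, where the others had 0.994 to 28.8. Krtap31-1 was at 0.937 CPM in NR5 and at 0.0 to 0.22 CPM in the other non-responders. Among the responders, Krtap8-1 was lowest in R3, at 215 CPM, where the others had 290 to 301 CPM.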

How the results depend on the processing

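In all alternatives run, 0 members passed the adjusted threshold. The median log2 fold change of the members changed sign without the 3 libraries of highest Rn45s share for responders against ground controls (0.57), and with the keratin covariate that includes Krt84 for responders against non-responders (-0.15). As each library was left out, the median ranged from -1.19 to -0.39 for ESE, -1.15 to -0.32 for responders and -1.81 to -0.57 for non-responders, each against ground controls, and from -0.13 to 1.05 between responders and non-responders. The cause was not tested. Without the libraries of highest Alb and Acta1, the ESE median was -1.05. No paired analysis was possible because the replicate numbers only follow accession order. The arm comparisons planned as main tests were not run as such, since the deposited tables used for groups do not give the arm, and neither were their alternatives. With at most 6 mice in the ground control group and the wide spread of the summed level between them, small differences were not detectable.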
